A study of Mus musculus with 6 samples.

Results

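Macrophages that have been activated by a bacterial signal can later turn to the resolution of inflammation and the repair of tissue. The 8 genes described here mark that turn or drive it: Il4ra, the receptor chain that binds IL-4, Mrc1, Chil3 and Retnla, which are markers of alternative activation, Adora2a, a receptor for adenosine, and Vegfa, Thbs1 and Tgfb1, which encode secreted regulators of vessels and repair. They were chosen by symbol from the 55254 genes of a table of 3′ end counts, and each was followed through the transcript whose mean count was highest. Of the 8 genes, 7 had counts and were tested, and Retnla had none in any library.

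The cells were bone marrow-derived macrophages (BMDMs) of C57BL/6J mice aged 6 to 8 weeks, cultured for 10 days in medium containing the secreted products of L929 cells, which supply the macrophage growth factor CSF1. All cultures received LPS, the bacterial ligand of TLR4, at 100 ng/ml for 4 hrs. The 3 control cultures came from hnRNPDfl/fl mice, which carry floxed alleles but no Cre. The 3 M-Δx3,4 cultures came from LysCre+hnRNPDfl/fl mice, in which Cre, driven by the lysozyme M promoter of myeloid cells, deletes exons 3 and 4 of hnRNPD. This gene encodes the AUF1 proteins, which bind AU-rich elements in the 3′ UTRs of mRNAs. No culture was treated with IL-4 or with an adenosine agonist, and none was left without LPS, so the values describe these genes at 4 hrs of LPS alone.

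IL-4 acts through IL4RA, which with its partner chains activates JAK kinases and the transcription factor STAT6, and STAT6 in turn induces Mrc1, Chil3 and Retnla in mouse macrophages. Adenosine acts through the receptor encoded by Adora2a, which couples to the G protein Gs and raises cAMP, and in macrophages that have also met LPS this signal is known to lower TNF and to raise VEGF. VEGFA promotes the growth of vessels, thrombospondin-1 (Thbs1) restrains it and can release active TGF-β from its latent form.

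The libraries held between 2503213 and 3846120 counts when each gene was taken by 1 transcript. The p37 transcript of hnRNPD (Hnrnpd, ENSMUST00000072750) ran from 69.6 to 177.8 normalized counts in control and from 12.6 to 52.8 in M-Δx3,4 BMDMs, without overlap. The more abundant transcript of the gene (ENSMUST00000172361) had 335.9, 185.9 and 104.4 in control and 137.9, 124.3 and 160.5 in M-Δx3,4 BMDMs, with overlap (edgeR log2 fold change -0.57, unadjusted p = 0.183). Both were counted in the 3′ UTR, outside the deleted exons, so neither checks the deletion itself. Of 8 macrophage markers, all had a mean of at least 5 normalized counts, and their sums overlapped between the groups (6451.6 to 7034.1 in control and 5413.5 to 7072.1 in M-Δx3,4 libraries). Among them Lyz2, the lysozyme M gene whose promoter drives Cre, was lower in every M-Δx3,4 library (1342.0, 881.7 and 968.2) than in every control library (1992.1, 1788.0 and 2200.8), with an edgeR log2 fold change of -0.91 and an unadjusted p of 0.0089 (adjusted p = 0.984). Cre was present in every M-Δx3,4 culture and in no control culture, so its presence and the deletion cannot be told apart in these data. The control libraries stood further apart from each other than the M-Δx3,4 libraries did. The coefficient of variation (CV) was larger in control for 68.5% of the 9958 genes with a mean of at least 5 normalized counts. Control replicate 3 also held counts of genes known from liver, noticed after the values were seen. For 10 of them, Alb and Fabp1 among them, its counts ran from 11 to 228 and summed to 870, against sums of at most 2 in every other library. The fold change of each of the 7 genes is therefore also given without control replicate 1 and without control replicate 3, and that of a gene of the pathway lists where this ended a call or turned the sign.

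AU-rich elements are described before the counts, because AUF1 binds them. The pentamer ATTTA and the nonamer TTATTTATT, which contains it (T stands for U of the mRNA), were searched on the transcript strand of the 3′ UTR in GENCODE vM21, whose assembly is the mm10 of the deposited files. The 3′ UTR of Vegfa (1865 bases) held 9 pentamers, and 4.33% of the tested genes with a 3′ UTR within 20% of that length held as many or more. Mrc1 (882 bases) held 5, against 3.57% by the same measure, and Thbs1 (2104 bases) held 6, against 22.4%. Tgfb1 held 1 in its short 3′ UTR (135 bases), where 19.5% of genes of like length had any. Il4ra (2420 bases), Adora2a (848 bases) and Chil3 (299 bases) held none, while 92.8%, 63.2% and 33.8% of genes of like length held at least 1. Genes of like length were not matched for GC content, on which counts of motifs made of A and T also depend. It was 32.2% for Mrc1, 38.8% for Chil3, 41.4% for Thbs1, 43.2% for Vegfa, 53.6% for Il4ra, 54.6% for Adora2a and 76.3% for Tgfb1. Vegfa and Thbs1 each held 1 nonamer, and 8.52% and 8.87% of genes of like length held it. The sequences below show these nonamers, the pentamers of Vegfa and Thbs1 nearest the annotated end, the pentamer of Mrc1 that lies where most of its reads were counted, and the only one of Tgfb1, with the motif in capitals. They are matches of letters, and binding was not measured in these libraries.
Vegfa, chr17:46017167-46017193, minus strand: tgttatcatTTATTTATTggtgctact
Vegfa, chr17:46017064-46017090, minus strand: ccgtagtacatATTTAtttttaaacag
Thbs1, chr2:118126156-118126182, plus strand: aaatacagaTTATTTATTaaccctgtt
Thbs1, chr2:118127107-118127133, plus strand: taaatcatatggaagtttatATTTAta
Mrc1, chr2:14331981-14332007, plus strand: atttgctttacATTTAactattaataa
Tgfb1, chr7:25705004-25705030, plus strand: cccggggctgtATTTAaggacacctgc

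None of the 7 genes passed the threshold for a change between control and M-Δx3,4 BMDMs. A gene counted as called when edgeR gave it a p under 0.05 before adjustment and the log2 fold change was 1 or more in size, and 0 of the 7 were called, against 3.07% of the 11875 genes tested. With the unadjusted p under 0.05 alone the count was again 0, against 3.98% of all genes, and it was 0 in DESeq2 and in limma-voom as well. The libraries of the groups overlapped for each of the 7, whereas they did not overlap for 8.44% of all genes. Adjusted over all transcripts, the p-values of the 7 ran from 0.984 to 0.998 in edgeR, where 0.0% of all genes had an adjusted p under 0.05. DESeq2 gave 2 such genes, with 0 of the 7 among them. By sign, 3 of the 7 were higher and 4 lower in M-Δx3,4, with a median log2 fold change of -0.21 beside -0.01 over all genes tested. The plot of normalized counts by library shows that the spread lay mainly among the control cultures. The CV was larger in control for 7 of 7 genes, running from 25.2% to 87.3% in control and from 2.11% to 45.9% in M-Δx3,4 BMDMs.

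**Figure D1:**
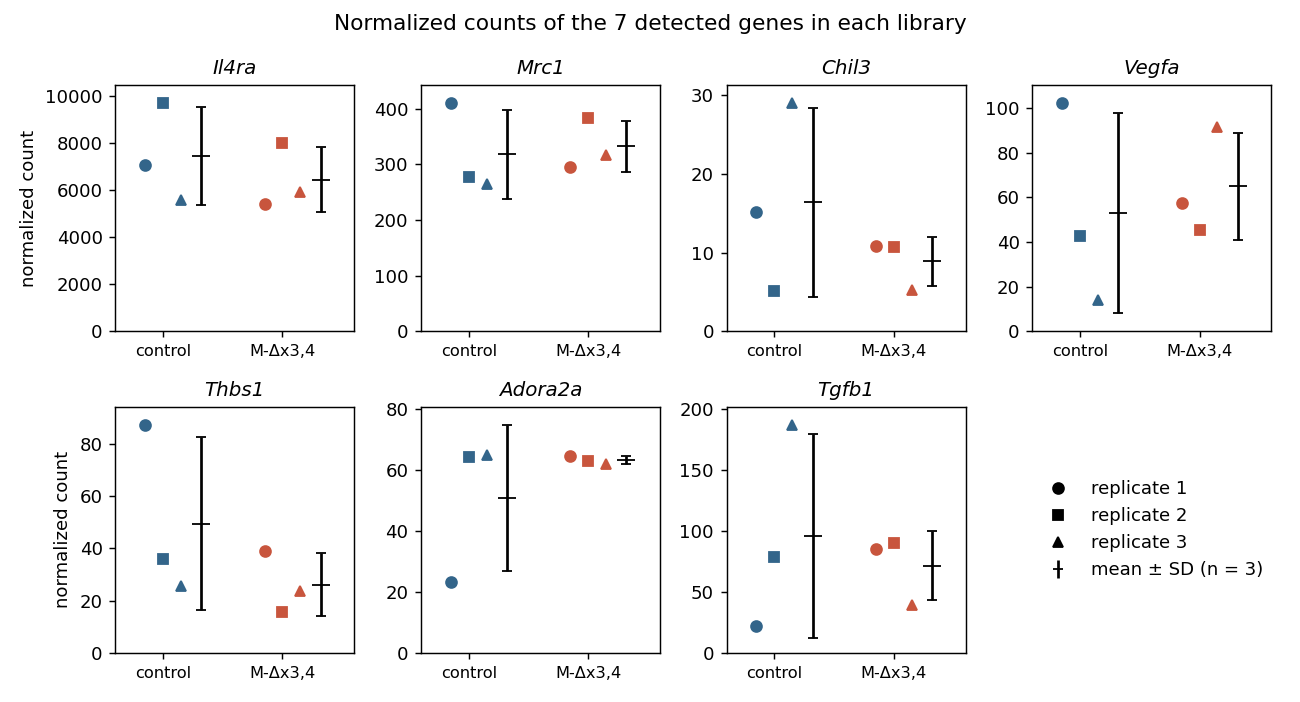
Normalized counts (y axis, linear from 0) of 7 genes in the 3 control and the 3 M-Δx3,4 libraries. Symbols are replicates and bars the mean ± SD (n = 3). Every gene has overlapping groups, and for Adora2a the M-Δx3,4 libraries lie within 61.9 to 64.6 while control replicate 1 is at 23.2.

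Levels were compared between genes in the authors' TPM, which divide by the length of the counted region. Il4ra stood far above the others with 201 ± 54.6 TPM in control and 177 ± 30.0 in M-Δx3,4 BMDMs (SD, n = 3 here and below). Mrc1 followed with 20.5 ± 6.6 and 21.7 ± 2.08 TPM, and Tgfb1 with 17.5 ± 14.8 and 13.7 ± 5.21. These neighbours overlapped in control and not in M-Δx3,4 BMDMs, but their closeness depends on the division by length. In normalized counts Mrc1 lay above Tgfb1 in every library (265.7 to 410.3 against 22.1 to 186.8 in control). There Tgfb1 overlapped with Adora2a and Vegfa in both groups. The other 4 genes were near the lower end in TPM. Adora2a had 3.28 ± 1.42 and 4.28 ± 0.199 TPM, Chil3 2.16 ± 1.52 and 1.18 ± 0.446, Vegfa 1.88 ± 1.7 and 2.29 ± 0.889, and Thbs1 1.55 ± 1.15 and 0.827 ± 0.404. In control these 4 overlapped with each other. In M-Δx3,4 BMDMs Adora2a lay above the other 3 in every library, and Vegfa lay above Chil3 and Thbs1, whose ranges overlapped. This order among the scarce genes also depends on the division by length. In normalized counts the M-Δx3,4 libraries of Adora2a (61.9 to 64.6) and Vegfa (45.6 to 91.7) overlapped, and those of Thbs1 (15.5 to 39.1) lay above those of Chil3 (5.3 to 10.8).

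Il4ra (ENSMUST00000033004, counted over chr7:125577055-125579723, plus strand) was the most abundant of the set. Its normalized counts were 7067.8, 9683.6 and 5592.0 in control replicates 1, 2 and 3 and 5384.8, 7986.7 and 5914.9 in M-Δx3,4 replicates 1, 2 and 3. The second replicate was the highest of each group, and the groups overlapped. The means were 7447.8 ± 2072.1 and 6428.8 ± 1375.0, a fitted log2 fold change of -0.21 (SE, the standard error, 0.30, exact permutation test, two-sided, p = 0.6, where 3 against 3 cannot give less than 0.1). The value was -0.25 without control replicate 1, 0.02 without control replicate 2 and -0.37 without control replicate 3. A further transcript, ENSMUST00000206846, is counted over a region that overlaps the part of this one nearest the stop codon and held 98.4% to 99.3% as many counts in every library, so it is no independent measure.

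Mrc1, the mannose receptor CD206, takes up glycoproteins with terminal mannose and was the most abundant marker of alternative activation here. Its transcript ENSMUST00000028045 (chr2:14331176-14332306, plus strand) had 410.3, 277.9 and 265.7 normalized counts in control and 295.4, 384.5 and 317.9 in M-Δx3,4 BMDMs. Control replicate 1 was the highest of all libraries and control replicate 3 the lowest. The means of 318.0 ± 80.2 and 332.6 ± 46.3 differed by a log2 fold change of 0.07 (SE 0.32, exact permutation test p = 0.7). Without control replicate 1 it was 0.29, and without control replicate 3 it was -0.04. Most of the reads fell in a stretch of 249 bases near the annotated end, chr2:14331928-14332176, which is the region of the transcript ENSMUST00000146168. That stretch held 81.6%, 81.6% and 80.3% of the control counts, and among M-Δx3,4 libraries it held 81.5%, 79.3% and 81.2%. Its mean share was 81.2 ± 0.72% in control and 80.7 ± 1.2% in M-Δx3,4 BMDMs (exact permutation test, two-sided, p = 0.5), and the shares overlapped between the groups.

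Chil3 encodes Ym1, a secreted chitinase-like protein without enzyme activity. ENSMUST00000063062 (chr3:106147305-106147852, minus strand) had 13, 5 and 25 raw counts in control and 11, 11 and 7 in M-Δx3,4 libraries. Normalized, these were 15.1, 5.1 and 29.0 against 10.8, 10.7 and 5.3. The highest library was control replicate 3, the library with counts of liver genes, and the lowest was control replicate 2. The log2 fold change was -0.87 (SE 0.65, exact permutation test p = 0.5), and it was -0.92 without control replicate 1 and -0.16 without control replicate 3. Chil3 is also known from neutrophils and their precursors. The summed normalized counts of 8 neutrophil markers, of which Elane was at 0, ran from 387.2 to 695.0 in control and from 482.2 to 728.3 in M-Δx3,4 libraries. The sum was lowest in control replicate 2, as Chil3 was, but it was highest in M-Δx3,4 replicate 2 and stood at 625.3 in control replicate 3, where Chil3 was highest. In RNA of whole cultures, fewer cells of a type and less RNA per cell cannot be told apart. Chil4, a close paralog whose reads could be exchanged with those of Chil3, had 0 counts in every library.

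Retnla, the gene of the secreted resistin-like protein Fizz1 that IL-4 induces strongly, had 0 counts in all 6 libraries over its region chr16:48844302-48844710. A count of 0 allows up to 3 counts in a library, which is 2.29 to 3.49 normalized counts, and no difference between the groups can be stated below that. Its paralog Retnlb was also at 0, and Retnlg had 1 count in 1 library. Arg1 and Mgl2, which IL-4 also induces, had 4 and 10 counts over all 6 libraries together.

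Vegfa varied widely among the control cultures. ENSMUST00000024747 (chr17:46016744-46018857, minus strand) had 102.3, 42.9 and 13.9 normalized counts in control and 57.7, 45.6 and 91.7 in M-Δx3,4 BMDMs. Control replicates 1 and 3 were the highest and the lowest of the 6 libraries, 7.35-fold apart, and the M-Δx3,4 libraries lay between them. The means were 53.0 ± 45.0 and 65.0 ± 23.9, and the fitted log2 fold change was 0.30 (SE 0.55, exact permutation test p = 0.7). Without control replicate 1 Vegfa passed the threshold (log2 fold change 1.18, unadjusted p = 0.0259 in edgeR). So did 7.2% of the 11369 genes tested in that fit in the same direction. The groups then parted narrowly, at 42.9 in control against 45.6 in M-Δx3,4 BMDMs, and the share of all genes that parted was not computed there. Without control replicate 3 the sign of Vegfa turned (-0.14). Nearly all Vegfa reads came from the distal part of the 3′ UTR. The first 564 bases after the stop codon, counted as the region of ENSMUST00000142351 (chr17:46018294-46018857), held 1 of the 368 counts of the 6 libraries.

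Thbs1 had the largest fold change of the set by edgeR. ENSMUST00000039559 (chr2:118125030-118127382, plus strand) had 87.2, 35.8 and 25.5 normalized counts in control and 39.1, 15.5 and 23.7 in M-Δx3,4 BMDMs. Control replicate 1 was far above the other 5 libraries, and M-Δx3,4 replicate 1 lay above control replicates 2 and 3. The means were 49.5 ± 33 and 26.1 ± 12, and the fitted log2 fold change was -0.92 (SE 0.52, unadjusted p = 0.0952 and adjusted p = 0.984 in edgeR, exact permutation test p = 0.4). The sign was negative with each library left out in turn. Thbs1 passed the threshold without control replicate 3 (-1.22, unadjusted p = 0.0207) and without M-Δx3,4 replicate 1 (-1.32, unadjusted p = 0.0466), while without control replicate 1 it was at -0.23. In the fits where it passed, 1.07% and 1.83% of all genes tested were called lower.

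Adora2a, the adenosine receptor, had nearly equal counts in the M-Δx3,4 cultures. ENSMUST00000105420 (chr10:75333937-75335033, plus strand) had 64.6, 63.1 and 61.9 normalized counts in M-Δx3,4 BMDMs and 23.2, 64.4 and 65.0 in control. Control replicate 1 was low, and the other 5 libraries stood together. The means were 50.9 ± 23.9 for control and 63.2 ± 1.3 for M-Δx3,4 cultures, and the fitted log2 fold change was 0.31 (SE 0.43, exact permutation test p = 0.9). Without control replicate 1 it was -0.03, and without control replicate 3 it was 0.53.

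Tgfb1 encodes the ligand that macrophages release to promote matrix formation and to restrain immune cells. ENSMUST00000002678 (chr7:25704943-25705326, plus strand) had 22.1, 78.7 and 186.8 normalized counts in control and 85.1, 90.3 and 39.0 in M-Δx3,4 BMDMs. Control replicate 1 was the lowest and control replicate 3 the highest, 8.46-fold apart, the reverse of Vegfa. The means were 95.8 ± 83.7 and 71.5 ± 28.3, and the fitted log2 fold change was -0.43 (SE 0.58, exact permutation test p = 0.9). Without control replicate 1 it was -0.89, and without control replicate 3 it was 0.50.

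**Figure D2:**
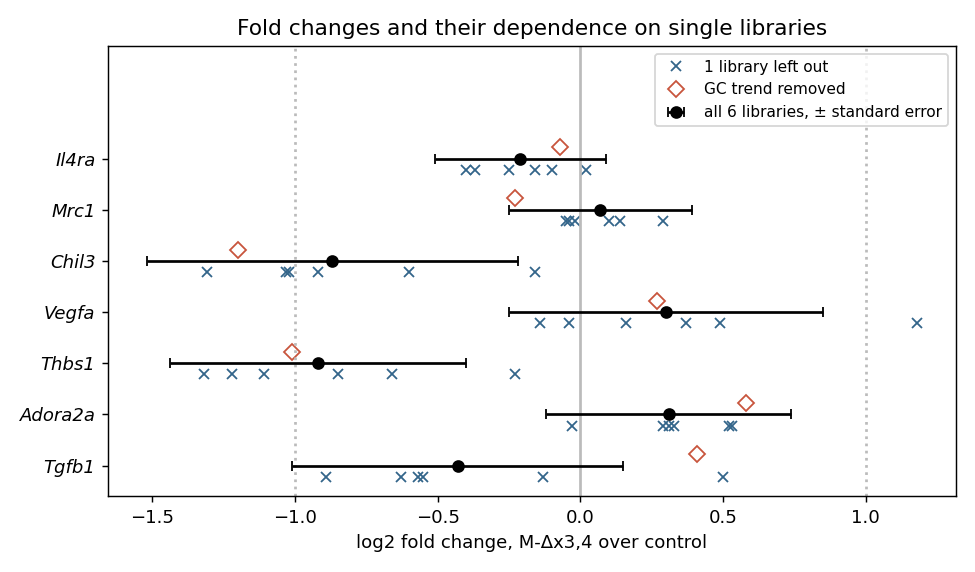
Log2 fold changes of M-Δx3,4 over control (x axis) for 7 genes. Black points are the edgeR values with their standard errors, crosses the values with 1 library left out, open diamonds the values after the GC trend was removed from each library, and dotted lines a log2 fold change of 1 in either direction. Vegfa reaches 1.18 and Tgfb1 0.50 when a control library is left out.

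For 4 of the 7 genes, Mrc1, Vegfa, Adora2a and Tgfb1, control replicates 1 and 3 were the extremes of the 6 libraries, against 21.1% of the 9958 genes with a mean of at least 5 normalized counts. For Adora2a this was narrow, with 65.0 in control replicate 3 and 64.6 in M-Δx3,4 replicate 1. The direction went with base composition. Vegfa, Thbs1 and Mrc1, with 43.2%, 41.4% and 32.2% GC in the 3′ UTR, had log2 ratios of control replicate 1 over control replicate 3 of 2.79, 1.73 and 0.63. Tgfb1 (76.3% GC) and Adora2a (54.6% GC) had ratios of -3.02 and -1.44. Il4ra (53.6% GC, ratio 0.34) and Chil3 (38.8% GC, ratio -0.90) did not follow this order. The same trend ran through the transcriptome. Of 3887 genes with a mean of at least 50 normalized counts, those with the lowest GC content (25.4% to 40.5%, 974 genes) had a median ratio of 0.97 and those with the highest (51.0% to 76.3%, 972 genes) of -0.76, and the Spearman correlation across genes, which are not independent replicates, was -0.61. Length went with it as well, with a correlation of 0.35. The log2 fold change of M-Δx3,4 over control also fell with GC content. Its median was 0.26 in the genes with the lowest GC content and -0.25 in those with the highest.

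After a smooth GC trend was removed from each library, a step chosen after the data were seen, the Tgfb1 counts became 58.4, 65.5 and 54.2 in control and 84.6, 91.1 and 60.9 in M-Δx3,4 BMDMs. The control libraries of Tgfb1 then lay close together, and the log2 fold change turned from -0.43 to 0.41 (unadjusted p = 0.235 in edgeR). Tgfb1 had the highest GC content of the 3887 genes, so its correction rests on the end of the curve. Mrc1 turned from 0.07 to -0.23. Vegfa kept most of its spread, with 88.2, 46.6 and 17.0 in control. Thbs1 became 71.4, 41.1 and 33.2 in control and 37.2, 15.7 and 20.1 in M-Δx3,4 BMDMs, still overlapping, and passed the threshold narrowly (log2 fold change -1.01, unadjusted p = 0.0374), where 2.05% of all genes were called lower. Adora2a became 28.2, 56.8 and 49.6 in control and 69.3, 62.9 and 70.8 in M-Δx3,4 BMDMs. Its groups then no longer overlapped, but the share of all genes without overlap was not computed after this step. The log2 fold change of Adora2a went from 0.31 to 0.58 without passing (unadjusted p = 0.132 in edgeR). Chil3 went from -0.87 to -1.20 (unadjusted p = 0.105) and Il4ra from -0.21 to -0.07.

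**Figure D3:**
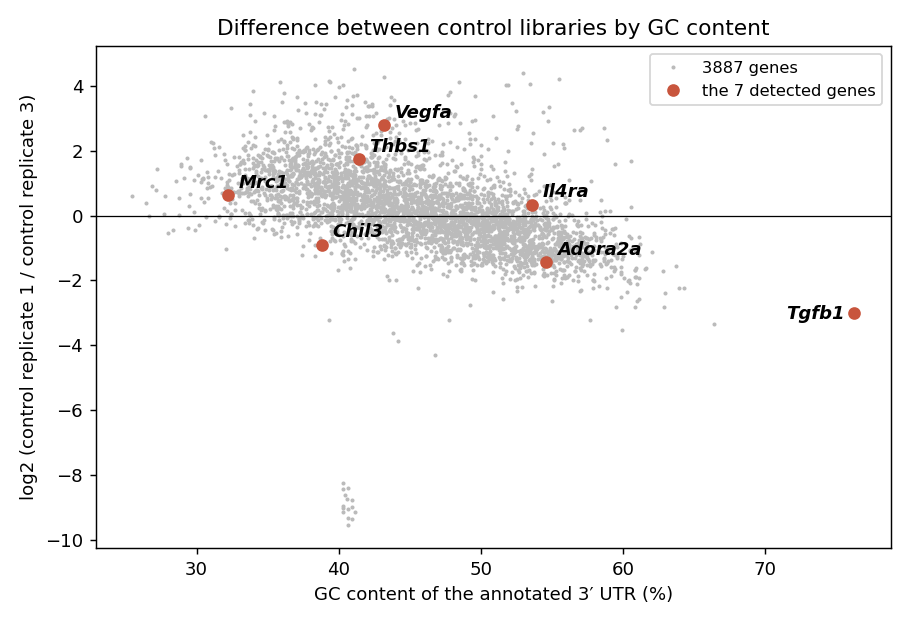
GC content of the annotated 3′ UTR (x axis, percent) against the log2 ratio of control replicate 1 over control replicate 3 (y axis, normalized counts plus 1) for 3887 genes in grey and the 7 genes in red. The ratio falls with GC content, with Vegfa at 2.79 and Tgfb1 at -3.02, and the 15 grey points near the bottom are major urinary protein genes of liver, a family with shared reads, with at most 4 counts outside control replicate 3.

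The genes whose counts followed each member most closely over the 6 libraries were named by Pearson's r of log2(normalized count + 1) among 4718 genes with a mean of at least 50, as a description over 6 points. Vegfa was followed by Rfwd3 (r = 0.999), Desi2 (0.998) and Pcdh19 (0.998), each highest in control replicate 1 and lowest in control replicate 3. Tgfb1 was followed by Psmd3 (0.994), Rps16 (0.994) and Evl (0.991), lowest in control replicate 1 and highest in control replicate 3. Adora2a was followed by Hspa8 (0.992), Prmt1 (0.978) and Pop5 (0.977), which shared the low value in control replicate 1. For Il4ra they included Decr1 (0.983) and Prrg2 (0.982), highest in control replicate 2, and for Mrc1 they were Pigk (0.973), Bloc1s6 (0.958) and Rnf20 (0.956), highest in control replicate 1. Rps16 and Hspa8 have many near-identical copies in the genome, so their counts are less certain. Between members, r was -0.93 for Vegfa and Tgfb1 and 0.76 for Adora2a and Tgfb1. Chil3 and Thbs1 had means below 50 and were not compared.

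The pathways around these genes were then counted by lists. Calls in the lists are read against 1.1% of all genes tested that were higher and 1.97% that were lower in M-Δx3,4 by the same threshold. Of 16 genes of IL-4 signalling (receptor chains, JAKs, Stat6 and their inhibitors), 12 were tested, 0 were called higher and 1 lower, with a median log2 fold change of -0.30. The gene was Jak3, the kinase bound to the common gamma chain. Its raw counts were 43, 44 and 98 for control and 28, 22 and 37 for M-Δx3,4 cultures, and its normalized means 69.5 ± 38.3 and 25.7 ± 3.8 (edgeR log2 fold change -1.43, SE 0.45, unadjusted p = 0.0063 and adjusted p = 0.984). After normalization every M-Δx3,4 library lay below every control library. Without control replicate 3 the value was -0.87 and no longer passed. The other abundant members of the list, Ptpn6 (-0.39) and Socs1 (-0.06, and 0.25 without control replicate 3), which encode a phosphatase and an inhibitor of JAK signalling, had overlapping libraries.

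Some markers of other cells moved in the same direction as Jak3. The summed normalized counts of 7 B cell markers ran from 301.0 to 358.5 in control and from 142.7 to 165.3 in M-Δx3,4 libraries. Igkc, the immunoglobulin kappa constant region, carried most of that sum with 223.2, 228.9 and 251.8 in control and 83.1, 59.2 and 95.5 in M-Δx3,4 libraries, and Ighm, the heavy chain of IgM, was also lower in every M-Δx3,4 library (44.0, 43.7 and 28.3) than in every control library (48.8, 62.3 and 76.6). Cd79b overlapped between the groups, and Ms4a1, Cd79a and Pax5 were at or near 0. The 6 markers of eosinophils, basophils and mast cells, of which 4 were at 0, summed to 7.0 to 36.0 in control and 0.8 to 5.9 in M-Δx3,4 libraries. None of these genes separated the groups on its own. Sums of the markers of T or NK cells (6 genes, 3 at 0) ran from 45.2 to 55.8 in control and from 25.4 to 42.7 in M-Δx3,4 libraries. Cd3d and Cd4 carried nearly all of these sums, Cd8a had 1 count, and here too each gene by itself overlapped between the groups. The sums parted narrowly, and how often sums of other genes would do so was not tested. Marker sums of dendritic cells (6 genes, 2 at 0) and fibroblasts (5 genes) overlapped, with sums of at most 10.2 and at most 48.8. Their part in the changes of the lists was not tested.

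Of 30 IL-4 response genes, only 16 could be tested at this depth, and the other 14, Retnla and Arg1 among them, had at most 10 counts over the 6 libraries. Of the 16, 0 were called higher and 1 lower, and the median was -0.19. Cdh1, the adhesion protein E-cadherin, fell from 22.1 ± 8.4 to 5.2 ± 4.8 normalized counts (edgeR log2 fold change -2.07, SE 0.66, adjusted p = 0.984). Its libraries held 12.8, 24.5 and 29.0 in control and 2.0, 10.7 and 3.1 in M-Δx3,4 BMDMs, without overlap, and it passed in all 6 fits that left out a library. Il1rn, the antagonist of the IL-1 receptor and the most abundant gene of the list, ran from 4636.0 in control replicate 3 to 20041.1 in control replicate 1. Its log2 fold change was -0.20, turned to 0.43 without control replicate 1 and was -0.57 without control replicate 3. Tgm2, a transglutaminase, was at -0.48 with overlapping libraries.

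In the adenosine pathway (receptors, enzymes that make or remove adenosine, and cAMP signalling) 22 of 28 genes were tested and 0 were called in either direction. The median log2 fold change was 0.20. Without control replicate 1, 4 genes of cAMP signalling (Creb1, Prkacb, Prkar2a and Prkar2b) were called higher, against 7.2% of all genes tested in that fit, and none was called when any of the other 5 libraries was left out. The most abundant genes, Gnas (-0.03), Adcy7 (0.02) and Prkaca (-0.09), which encode the Gs subunit, an adenylyl cyclase and a catalytic subunit of protein kinase A, had overlapping libraries. Gnas was at 0.22 without control replicate 1 and -0.35 without control replicate 3, and Adcy7 at 0.20 and -0.18. Of the other receptors, Adora1 had 2 counts and Adora2b 12 over all libraries, below the level for testing. Adora3 was tested and had the largest log2 fold change of the list (2.30), for which it is named here. It did not pass the threshold, since its unadjusted p in edgeR was not under 0.05.

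Of 34 genes of VEGF signalling and vessel remodelling, 24 were tested, 0 were called higher and 1 lower, and the median was 0.02. Timp1, an inhibitor of matrix metalloproteinases, fell from 16.7 ± 8.1 to 4.4 ± 2.1 normalized counts (edgeR log2 fold change -1.88, SE 0.67, adjusted p = 0.984). Its M-Δx3,4 libraries held 2, 6 and 7 raw counts, and it no longer passed without control replicate 3 (-1.49) or without M-Δx3,4 replicate 1. Plaur, the urokinase receptor, had an unadjusted p of 0.0189 and a log2 fold change of -0.93, short of the threshold, with means of 198.5 ± 62.6 (control) and 103.7 ± 4.7 (M-Δx3,4) normalized counts. Plaur was lower in every M-Δx3,4 culture than in every control culture. The receptors of thrombospondin-1, Cd36 (-0.20) and Cd47 (0.26), and the VEGF co-receptor Nrp2 (0.04) had overlapping libraries. Cd36 turned to 0.18 and Nrp2 was at 0.73 without control replicate 1, and without control replicate 3 Nrp2 turned to -0.30.

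In the TGF-β pathway 21 of 29 genes were tested, with 1 called higher, 0 lower and a median of -0.07. Smurf2, a ubiquitin ligase that targets receptors and SMADs, had 4, 2 and 1 raw counts in control and 16, 9 and 7 in M-Δx3,4 libraries (edgeR log2 fold change 1.87, SE 0.84, unadjusted p = 0.0428 and adjusted p = 0.984). The groups did not overlap, but it passed in only 2 of the 6 fits that left out a library, those without control replicate 1 and without M-Δx3,4 replicate 3. Furin (-0.20), the protease that processes the TGF-β precursor, Nrros (-0.11), which anchors latent TGF-β on myeloid cells, and Skil (0.47, and 0.96 without control replicate 1), an inhibitor of SMADs, had overlapping libraries. Tgfb2 and Tgfb3 had 0 counts, which leaves Tgfb1 as the TGF-β ligand detected.

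Among genes of repair and of the clearance of dying cells, 21 of 25 were tested, 0 were called higher and 2 lower, with a median of -0.37. Axl, a receptor that binds dying cells through GAS6, had 61.6, 69.5 and 89.3 normalized counts in control and 44.0, 23.3 and 28.3 in M-Δx3,4 BMDMs (edgeR log2 fold change -1.20, SE 0.41, unadjusted p = 0.00974 and adjusted p = 0.984). Every M-Δx3,4 library was below every control library, and the value stayed between -1.5 and -1.03 with each library left out, no longer passing without M-Δx3,4 replicate 2. Apoe, a lipid carrier that macrophages and liver secrete, had 8317.3, 12744.6 and 25640.7 normalized counts in control and 5455.2, 7879.9 and 7920.2 in M-Δx3,4 BMDMs (edgeR log2 fold change -1.14, SE 0.37, unadjusted p = 0.00827 and adjusted p = 0.984). Its groups did not overlap, and the highest value was that of control replicate 3, the library with counts of liver genes, whose part in it was not tested. Without that library the log2 fold change was -0.56 and did not pass. Without M-Δx3,4 replicate 1 it did not pass either. Gpnmb (-0.45) and Plin2 (-0.55), a glycoprotein of phagocytes and a lipid droplet protein, had overlapping libraries.

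For comparison, all 8 genes listed for the response to LPS were tested, and 0 were called, with a median of -0.08. Tnf (0.21), Cxcl10 (-0.02) and Acod1 (-0.14), an inflammatory cytokine, an interferon-induced chemokine and the enzyme that makes itaconate, each had overlapping libraries and means of at least 2594.0 normalized counts in both groups. Cxcl10 was at 0.08 and Acod1 at 0.13 without control replicate 1. Ccl5, a chemokine, had an unadjusted p of 0.0337 at a log2 fold change of -0.67, short of the threshold, with 3232.3, 2720.8 and 3619.7 normalized counts in control and 1976.9, 1770.2 and 2259.7 in M-Δx3,4 BMDMs, without overlap.

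**Figure D4:**
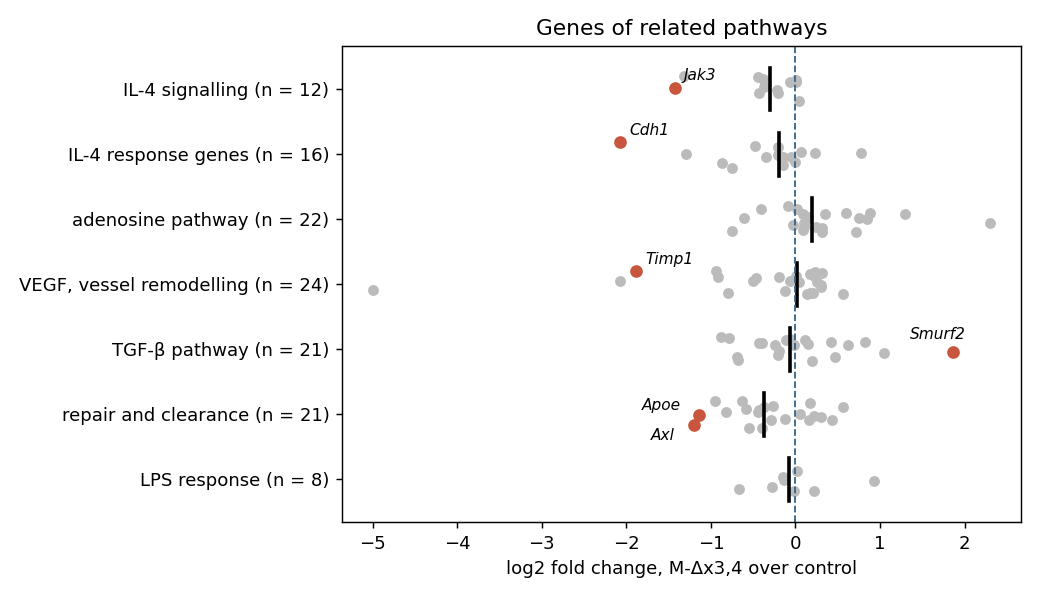
Log2 fold changes of M-Δx3,4 over control (x axis) for the tested genes of 7 lists, 1 point a gene. Red named points passed the threshold, black bars are list medians and the dashed line is the median of all genes tested (-0.01). Medians run from -0.37 for repair and clearance to 0.20 for the adenosine pathway, and the point near -5 is Pgf, which had few counts.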

How the data were processed

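The authors made 3′ end libraries (QuantSeq FWD, read on an Ion Proton) from 3 control and 3 M-Δx3,4 BMDM cultures. Per the submitters' processing notes, reads were mapped to mm10 (GRCm38.p6) with TopHat2 2.1.1 and then Bowtie2. The deposited counts are the authors' whole-number read counts per 3′ UTR region, made with metaseqR2 1.3.14 and not normalized, over 3′ UTRs that end 249 bases beyond the annotated transcript for each of the 7 genes. The deposited TPM values were computed by the authors from those counts. The authors' comparison table also holds fold changes, p-values and FDRs, which were not used, and 18 of its per-sample columns were left aside.

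The regions of a transcript were summed, counts were divided by median-of-ratios factors scaled to a geometric mean of 1, and the 32475 transcripts were kept that exceeded 4.89, the median normalized count, in any library. The groups were compared with edgeR 4.0.16 (glmQLFTest, quasi-likelihood) under R 4.3.3, and p-values were adjusted over all of these transcripts by Benjamini and Hochberg. Shares of all genes use 1 transcript per gene, the one with the highest mean count. Single genes had a two-sided exact permutation test, whose smallest p is 0.1. The SE is the size of the log2 fold change over the square root of F. Nothing in the labels says that the cultures came from separate mice, so p-values measure the spread between these cultures, which may be technical, and limits from counts cover counting error only. A gene was called when its unadjusted p was under 0.05 and its absolute log2 fold change at least 1. The steps were tested on simulated counts.

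The genes, the lists and the markers were chosen with earlier results of these data known. Named in the text are the 8 genes, their close paralogs, the p37 transcript of Hnrnpd, in each list the genes with an unadjusted p under 0.05 (at most 4) and the 3 with the highest mean count, and the 3 genes most alike to each gene with a mean of at least 50. The liver genes, Lyz2, the second Hnrnpd transcript, the B cell genes and the listed genes quoted as not tested were named after their values were seen. So were Adora3, Pgf and the genes called only with a library left out or by another tool. Sequences and 3′ UTR composition come from GENCODE vM21.

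The alternatives were TMM factors, library totals alone, DESeq2 1.42.0 (Wald test), voom of limma 3.58.1, no filter, filterByExpr, at least 10 counts in every library, a fit of 1 transcript per gene, a block for the replicate number, 0.01 as the p threshold, the next transcript of a gene and each library left out. Added after the data were seen were the removal of the GC trend (a loess curve of the log ratio to the mean library against 3′ UTR GC content, as an offset) and every alternative for the lists. Some genes that these rules name are not reported here. Python 3.11.15 with pandas 2.3.3, scipy 1.17.1 and matplotlib 3.10.9 made the tables and figures.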

Additional observations from a re-analysis of the deposited data

How the results depend on the processing

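With all libraries kept, 0 members passed in every alternative except after removal of the GC trend, where 1 (Thbs1) did at -1.01, and where Mrc1 (-0.23) and Tgfb1 (0.41) turned sign. With each library left out in turn 0 to 1 members passed. Vegfa passed without control replicate 1 (1.18) and Thbs1 without control replicate 3 (-1.22) or M-Δx3,4 replicate 1 (-1.32). The log2 fold changes then ran from -0.05 to 0.29 for Mrc1, -1.31 to -0.16 for Chil3, -0.14 to 1.18 for Vegfa, -1.32 to -0.23 for Thbs1, -0.03 to 0.53 for Adora2a, -0.89 to 0.50 for Tgfb1 and -0.40 to 0.02 for Il4ra. Signs turned for Mrc1 without control replicate 2 (-0.02), control replicate 3 (-0.04) or M-Δx3,4 replicate 2 (-0.05), for Vegfa without control replicate 3 (-0.14) or M-Δx3,4 replicate 3 (-0.04), for Adora2a without control replicate 1 (-0.03), for Tgfb1 without control replicate 3 (0.50) and for Il4ra without control replicate 2 (0.02). Of 114 values of single members under the alternatives, 100 kept their direction and side of the threshold. The cause was not tested. The difference in read share ran from -0.94 to 0.17 percentage points for Mrc1 and from 0.33 to 0.71 for Il4ra.

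Over all genes 365 were called. The number was 227 with DESeq2, 561 with no filter, 157 with filterByExpr (8444 genes tested), 91 with at least 10 counts in every library (6595 genes tested, without Chil3) and 82 at a p threshold of 0.01, and with a library left out it was lowest (221) without control replicate 3 and highest (1267) without control replicate 1. Lower genes made up 64.1% of the calls, 49.2% with limma-voom, 72.5% with at least 10 counts, 86.6% at a p threshold of 0.01, 35.4% without control replicate 1 and 76.4% without control replicate 2. With each library left out the lists had 0 to 1 calls for IL-4 signalling, 1 to 2 for IL-4 response, 0 to 4 for adenosine, 1 to 5 for vessel remodelling, 0 to 2 for TGF-β, 1 to 3 for repair and 0 for LPS response. Other settings moved IL-4 response to 0 (at least 10 counts, 7 genes tested), vessel remodelling to 2 (no filter, GC trend removed) or 0 (filterByExpr, at least 10 counts), TGF-β to 0 (DESeq2, filterByExpr, at least 10 counts) and repair to 1 in the fit with the replicate block, which lost Apoe. Limma-voom gave as many calls but lost Smurf2 and Apoe and called Tgfbr1 and Sparc in their place.

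The labels give replicate numbers and do not say whether same-numbered cultures were paired. Correlations between libraries did not follow the numbers throughout. Deviations of same-numbered libraries correlated at -0.213, 0.537 and -0.309 over 4723 genes. Across different numbers, control replicate 1 correlated at 0.542 with replicate 3 of the other group. Control replicate 3 correlated at 0.28 with replicate 1 of that group. The remaining pairs ran from -0.399 to 0.029. Each deviation was taken from the mean of 3 libraries, so these values are not independent and cannot show which cultures were prepared together. The replicate block followed the numbers, and a block that followed these correlations was not tested. With the replicate block 251 genes and 0 members were called, TGF-β had 0 calls, and the members' log2 fold changes ran from -0.83 (Thbs1) to 0.54 (Vegfa). At this depth Chil3 and Thbs1 rest on few counts and Retnla on none, and 3 cultures a group with the control spread seen here leave room for differences that the tests would not call.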

Other observations

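Control replicate 3 held counts of genes that are known from liver cells, chosen after their values were seen. It had 228 counts of Alb, 145 of Fabp1, 100 of Mup3, 78 of Gc, 75 of Fgg, 73 of Apoc3, 64 of Serpina3k, 61 of Ahsg, 35 of Apoa1 and 11 of Ttr. In the other 5 libraries 8 of these 10 genes had 0 counts, and Alb and Mup3 had at most 2. A further 15 major urinary protein genes, which share reads with each other, had 263 to 649 counts in control replicate 3 and at most 4 in any other library.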
